A study of Rattus norvegicus with 16 samples.

Results

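The 9 genes described here carry inorganic phosphate across cell membranes, hold those carriers in place, or belong to the hormone axis that sets their activity in the kidney. They were taken by symbol from the table of 35849 genes that the authors deposited, and all 9 were found: the type II sodium-phosphate cotransporters Slc34a1, Slc34a3 and Slc34a2, the type III cotransporters Slc20a1 and Slc20a2, the phosphate exporter Xpr1, the scaffold proteins Pdzk1 and Slc9a3r1, and Klotho (Kl). RNA came from the kidney of 16 male Sprague Dawley rats aged 6 to 8 weeks at the start, 4 in each of 4 groups. The paper describes 6 rats per group and does not say how those sequenced were chosen. The normal group had a citrate buffer injection and a normal diet. Rats of the DN (diabetic nephropathy) group received streptozotocin, a toxin of pancreatic beta cells, at 45 mg/kg, were kept in the study only with blood glucose above 16.7 mmol/L, and ate a diet high in glucose and fat with vehicle by gavage. Both treated groups, SIN (20 mg/kg) and SIN at 40 mg/kg, shared the streptozotocin, the glucose criterion and the diet, and were given sinomenine (SIN), a plant alkaloid, daily at those doses for 8 weeks. DN therefore differs from normal by toxin, glucose criterion and diet together, and no group received SIN without them. The paper does not say whether the normal rats also had gavage.

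Phosphate filtered at the glomerulus is taken back mainly by the proximal tubule, where the NaPi-IIa protein of Slc34a1 and the NaPi-IIc protein of Slc34a3 sit in the brush border. Parathyroid hormone (PTH) and fibroblast growth factor 23 (FGF23) lower reabsorption by removing these carriers from that membrane, and Klotho is the coreceptor through which FGF23 acts. Because much of this control acts on protein at the membrane, transcript levels describe only part of it.

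Transcript levels are given in CPM, counts of a gene relative to the library total after TMM scaling over the 16 rats, and as CPM per kilobase of gene length where genes are compared with each other. Totals ran from 19616312 to 25217030 estimated counts per rat, and the least covered value of the 9 genes, Slc34a2 in a SIN (40 mg/kg) rat, rested on 508 counts. Some genes of the other lists given below had far lower levels, down to 0. All 9 genes passed the filter on low counts in all 6 comparisons between groups. A gene was called changed at an adjusted p under 0.05 in edgeR's quasi-likelihood test with Benjamini-Hochberg adjustment over all genes tested, and every adjusted p below is of that test unless another is named. The records give each rat as a separate sample. The serial numbers in the library names ran in consecutive order within each group, so an effect of that order and one of condition cannot be told apart. The other number in those names was consecutive only within the normal group. In bulk kidney, fewer cells of a type and less RNA per cell cannot be told apart either.

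RefSeq promoter sequences were matched for 7 of the 9 genes (Slc9a3r1 under its newer symbol Nherf1), each from 250 bases before to 50 bases after the annotated start in build GRCr8. The 3 below are shown because Slc34a1 is the most abundant of the carriers and because Slc34a2 and Xpr1 were the members with the largest calls between the DN and normal groups, in opposite directions. Capitals mark matches, on either strand, to 5 motifs of 6 letters. The box named for its letters is TATAAA. The motif called the GC-rich box is spelled GGGCGG. The E-box searched here reads CACGTG. Nuclear receptors are known for the letters AGGTCA, and the liver and kidney factor HNF1 for the letters GTTAAT. The windows lie on the minus strand and are written 5′ to 3′ along the gene, at chr17:9238934-9239233 for Slc34a1, chr14:62143023-62143322 for Slc34a2 and chr13:70136115-70136414 for Xpr1.
Slc34a1: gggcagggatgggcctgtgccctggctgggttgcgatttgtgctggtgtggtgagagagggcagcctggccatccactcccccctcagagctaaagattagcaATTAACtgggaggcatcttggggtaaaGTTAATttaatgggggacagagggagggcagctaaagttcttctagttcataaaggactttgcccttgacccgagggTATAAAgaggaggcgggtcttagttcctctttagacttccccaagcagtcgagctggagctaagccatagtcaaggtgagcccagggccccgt
Slc34a2: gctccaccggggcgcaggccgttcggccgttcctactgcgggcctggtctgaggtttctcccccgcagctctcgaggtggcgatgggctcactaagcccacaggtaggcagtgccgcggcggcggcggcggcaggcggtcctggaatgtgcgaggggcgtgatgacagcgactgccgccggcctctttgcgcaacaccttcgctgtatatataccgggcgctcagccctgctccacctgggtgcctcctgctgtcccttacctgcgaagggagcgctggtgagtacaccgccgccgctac
Xpr1: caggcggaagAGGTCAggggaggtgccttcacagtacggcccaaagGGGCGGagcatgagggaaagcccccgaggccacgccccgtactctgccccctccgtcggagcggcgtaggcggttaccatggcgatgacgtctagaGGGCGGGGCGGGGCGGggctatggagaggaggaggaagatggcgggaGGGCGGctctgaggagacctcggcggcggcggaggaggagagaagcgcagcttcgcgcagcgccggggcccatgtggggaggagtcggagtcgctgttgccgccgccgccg
The Slc34a1 window held TATAAA at position -43 from the start and GTTAAT at -147 on the opposite strand and at -120 on the same strand. Of 27457 rat promoter windows of the same length, 14.3% held TATAAA and 7.37% held GTTAAT. The Slc34a2 window matched none of the 5 motifs, had a GC content of 68.3% against a median of 52.3% over all windows, and begins at a start 9948 bases inside the outermost edge of the gene, so it stands for one of its transcripts. In Xpr1 there were 5 GC-rich boxes, of which the middle 3 overlap by a single base, and AGGTCA at -240. GC-rich boxes were present in 34.9% of all windows. Among the members not printed, Kl held 3 GC-rich boxes at a GC content of 75.0%, Slc9a3r1 held 3 GC-rich boxes, Slc34a3 held AGGTCA on each strand and Pdzk1 held it once, a motif found in 15.7% of windows. CACGTG, present in 6.65% of windows, was in none of the 7. A match is a description of the letters and not evidence that a factor binds.

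Slc34a1 was by far the most abundant of the 9 genes in every rat. Per kilobase its level was 1667 ± 321 CPM (SD over 16 rats), and it stood above 99.9% of the genes with counts. Slc9a3r1 at 519 ± 77.8 and Pdzk1 at 477 ± 70.4 CPM per kilobase followed, and since Slc9a3r1 was above Pdzk1 in 10 of 16 rats their order lies within the spread. Slc34a3 came next at 81.6 ± 17.0 CPM per kilobase, above Kl in 15 of 16 rats. Kl at 56.2 ± 9.09 and Xpr1 at 25.16 ± 4.81 CPM per kilobase were each above the next gene in all 16 rats. The lowest were Slc20a1 at 14.1 ± 1.46, Slc20a2 at 13.6 ± 1.49 and Slc34a2 at 11.8 ± 4.33 CPM per kilobase, and each was above the next in only 10 of 16 rats. Of the summed per-kilobase level of the 6 membrane transporters, Slc34a1 made up 92.1 ± 0.611% in normal, 91.9 ± 0.337% in DN, 91.8 ± 1.28% in SIN (20 mg/kg) and 91.4 ± 1.48% in SIN (40 mg/kg) rats (SD, n = 4 each). The make-up of the transporter pool was thus carried by 1 gene in all 4 groups, and the changes below concern its minor components.

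**Figure D1:**
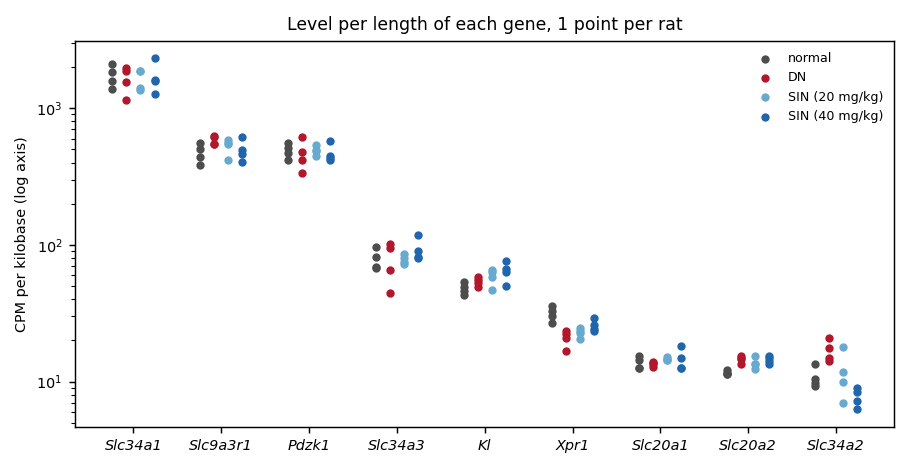
Level of each of the 9 genes in CPM per kilobase of gene length (log axis), with 1 point per rat and a column of points for each group. Slc34a1 lies above the other 8 genes in all 16 rats, while Slc20a1, Slc20a2 and Slc34a2 overlap at the bottom.

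The question between DN and normal kidneys is how these transcripts differ after streptozotocin, the glucose criterion and the diet together. Slc34a2 and Slc20a2 rose in DN and Xpr1 fell, while the other 6 genes did not pass the test. Those 3 calls stand against 19.5% of the 15775 genes tested that were called (3074), and the 3 of 9 are to be read against that share. The same 3 genes were the ones whose DN and normal rats did not overlap, as was the case for 24.3% of all genes. None of the 9 also reached a log2 fold change of 1, the further limit of the study's methods. The median log2 fold change was -0.029 over the 9 genes and 0.0016 over all genes tested.

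Slc34a1, the main carrier of phosphate reabsorption, had 5321.5, 4617, 3487 and 3961 CPM in the 4 normal rats and 2878.5, 3922, 4948 and 4703 CPM in the 4 DN rats. The 2 groups overlapped, and the lowest DN rat, replicate 1, was the lowest of all 16. The log2 fold change was -0.074 (SE 0.20, 95% interval -0.51 to 0.36, adjusted p = 0.812), which in fold is an interval of 0.701 to 1.29. Its estimated counts were not whole numbers in 13 of 16 rats, so part of its count was assigned by the authors' estimation. Slc34a3, the second proximal tubule carrier, had 207, 174, 147 and 148 CPM in normal and 95.3, 139.6, 217 and 202 CPM in DN rats. Replicates 1 and 2 of DN were below every normal rat and replicate 3 was above them all, and the log2 fold change was -0.043 (SE 0.24, 95% interval -0.58 to 0.49, adjusted p = 0.913). The log2 ratio of Slc34a3 to Slc34a1 within each rat was -4.68 ± 0.0758 in normal and -4.70 ± 0.199 in DN (SD, n = 4), a difference of -0.015 (two-sided exact permutation test, p = 0.886, the smallest possible being 0.0286). These 2 genes were low in the same DN rat and high in the same DN rats.

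Slc34a2 encodes NaPi-IIb, a carrier best known from intestine and lung, and it was the member with the widest spread between groups. It had 44.5, 57.2, 39.5 and 42.0 CPM in normal and 75.2, 89.1, 60.0 and 64.0 CPM in DN rats, and every DN rat was above every normal rat. Group means were 45.8 ± 7.89 CPM and 72.1 ± 13.02 CPM (SD, n = 4), and the log2 fold change was 0.66 (SE 0.15, 95% interval 0.32 to 0.99, adjusted p = 0.0199).

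Of the type III carriers, broadly expressed sodium-phosphate cotransporters, Slc20a2 (PiT-2) rose and Slc20a1 (PiT-1) was not called. Slc20a2 had 41.6, 44.0, 41.0 and 41.2 CPM in normal and 54.0, 56.1, 48.9 and 53.0 CPM in DN rats, with all DN rats higher. Its log2 fold change was 0.34 (SE 0.077, 95% interval 0.17 to 0.51, adjusted p = 0.0191). For Slc20a1 the values were 47.7, 39.1, 39.2 and 44.3 CPM in normal and 39.6, 42.5, 42.9 and 41.4 CPM in DN, and the DN rats lay within the normal range. Its log2 fold change was -0.029 (SE 0.092, 95% interval -0.23 to 0.18, adjusted p = 0.84), and its log2 ratio to Slc34a1 differed by 0.063 between the groups (two-sided exact permutation test, p = 0.857).

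Xpr1, the exporter through which phosphate leaves cells, had 87.2, 66.0, 73.5 and 80.8 CPM in normal and 41.1, 50.9, 55.1 and 57.5 CPM in DN rats. All DN rats were below all normal rats, and the lowest was again replicate 1. The log2 fold change was -0.58 (SE 0.13, 95% interval -0.87 to -0.30, adjusted p = 0.0178), a fold of 0.668. In 2 rats its estimated count was not a whole number.

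The scaffolds bind the tails of the type II carriers and hold them at the brush border. Pdzk1 had 1101, 1008, 829.6 and 925 CPM in normal and 670.3, 832, 941 and 1225 CPM in DN rats, so DN held both the lowest and the highest value of the comparison. Its log2 fold change was -0.069 (SE 0.18, 95% interval -0.47 to 0.33, adjusted p = 0.81). Slc9a3r1 (NHERF1) had 755, 828, 575 and 656 CPM in normal and 821, 939, 819 and 918 CPM in DN rats, and 2 of the DN rats were above every normal rat. Its log2 fold change of 0.32 (SE 0.13, 95% interval 0.033 to 0.60, adjusted p = 0.102) missed the threshold. Kl had 206, 189, 177 and 164 CPM in normal and 189.7, 212, 201 and 225 CPM in DN rats, again with 2 DN rats above every normal one. The log2 fold change of Kl was 0.17 (SE 0.10, 95% interval -0.053 to 0.40, adjusted p = 0.24), and its log2 ratio to Slc34a1 was higher in DN by 0.26 (two-sided exact permutation test, p = 0.229).

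The 3 calls depended on single rats, as did the share of all genes called. That share was 19.5% with all rats, 4.81% without normal replicate 4, 6.19% without normal replicate 3 and 8.17% without DN replicate 2. Without normal replicate 4 none of the 9 genes was called, and without normal replicate 3 or DN replicate 2 only Xpr1 was, while the log2 fold changes over all omissions of a rat stayed between 0.55 and 0.77 for Slc34a2, 0.32 and 0.38 for Slc20a2, and -0.66 and -0.49 for Xpr1.

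**Figure D2:**
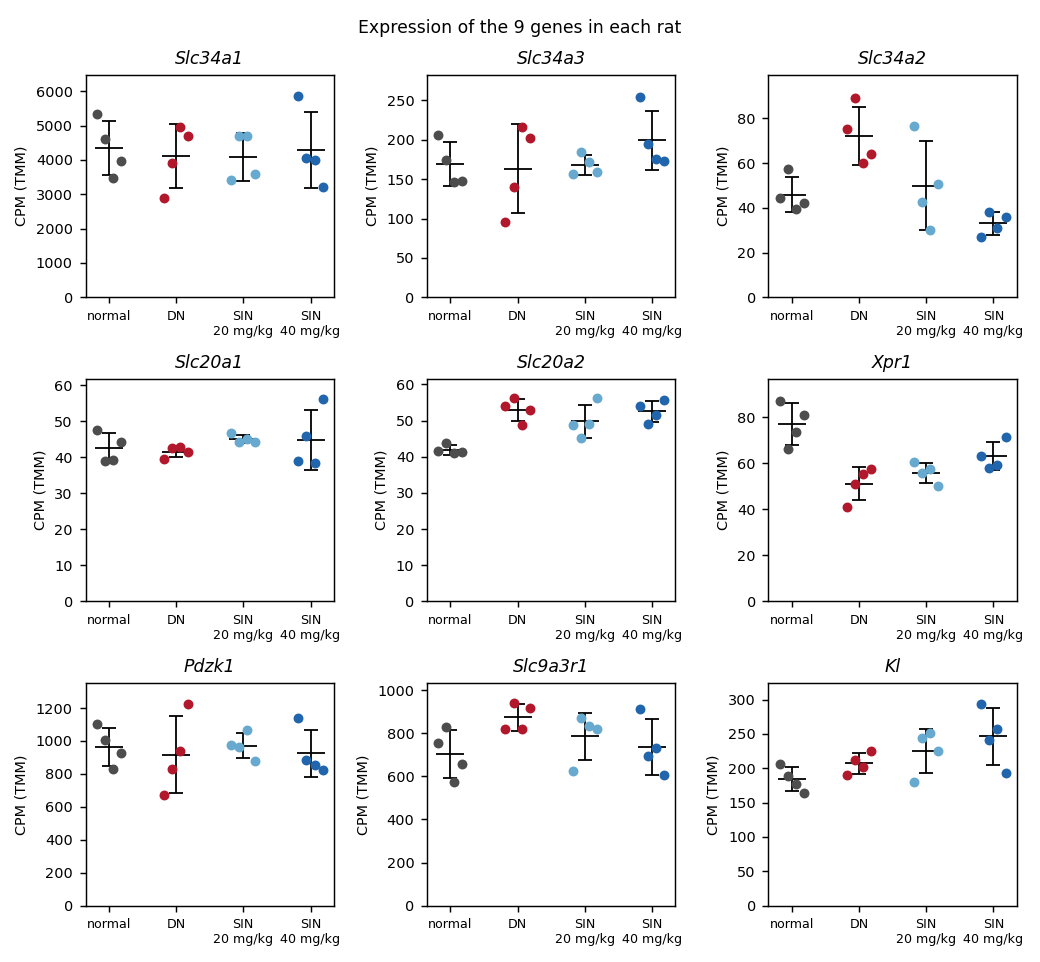
CPM (TMM scaled) of each of the 9 genes in every rat, 1 panel per gene, with points for the 4 rats of each group and a bar for the mean ± SD. Slc34a2 is higher in all DN rats than in all normal and all SIN (40 mg/kg) rats, and Xpr1 is lower in all DN rats than in all normal rats.

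The comparisons of the SIN groups with DN ask whether treatment altered these transcripts. None of the 9 genes was called at either dose by the quasi-likelihood test. For SIN (20 mg/kg) against DN the background was 0% of 15724 genes, with 0 of the 9 genes and 2427 of all genes at an unadjusted p under 0.05. DESeq2 called 221 genes and edgeR's exact test 89, with no member among them. For SIN (40 mg/kg) against DN it was 0% of 15530 genes, with 2 of the 9 genes, Slc34a2 and Xpr1, and 2657 of all genes at an unadjusted p under 0.05. DESeq2 called 436 genes and edgeR's exact test 158, and both called Slc34a2 alone among the 9. The DN rats stand in these comparisons and in the one with normal, so a high or low DN group moves both.

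Slc34a2 had 76.8, 42.6, 30.0 and 50.5 CPM in the SIN (20 mg/kg) rats and 26.8, 38.2, 31.0 and 36.1 CPM in the SIN (40 mg/kg) rats. At 20 mg/kg, 3 of 4 rats were below every DN rat and replicate 1 lay within the DN range, and the log2 fold change was -0.53 (SE 0.25, 95% interval -1.09 to 0.03, adjusted p = 0.339). At 40 mg/kg all 4 rats were below every DN rat, and the log2 fold change was -1.12 (SE 0.15, 95% interval -1.47 to -0.78, adjusted p = 0.14), a fold of 0.459. At this dose its unadjusted p was 2.7e-05. Its adjusted p was 4.62e-08 in DESeq2 and 1.57e-06 in edgeR's exact test, and over all alternatives tried it ran from 4.62e-08 to 0.392. The size of the difference changed little over those alternatives, from -1.22 to -1.01, and the call depended on the test.

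Xpr1 had 60.3, 55.7, 57.5 and 49.9 CPM at 20 mg/kg and 63.3, 58.0, 59.2 and 71.3 CPM at 40 mg/kg. The 20 mg/kg rats overlapped the DN rats and the 40 mg/kg rats were all above them, with log2 fold changes of 0.12 (SE 0.12, 95% interval -0.15 to 0.39, adjusted p = 0.618) and 0.30 (SE 0.12, 95% interval 0.03 to 0.57, adjusted p = 0.259). Slc20a1 had 46.7, 44.3, 45.1 and 44.3 CPM at 20 mg/kg, all above the DN rats by a small margin, and 38.9, 45.9, 38.6 and 56.3 CPM at 40 mg/kg, where replicate 4 stood apart. Its log2 fold changes were 0.11 (95% interval -0.064 to 0.29, adjusted p = 0.486) and 0.11 (95% interval -0.17 to 0.40, adjusted p = 0.678). Groups did not overlap for 1 member at 20 mg/kg, against 8.99% of all genes, and for 2 members at 40 mg/kg, against 10.4%.

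Kl had 180.1, 244, 252 and 225 CPM at 20 mg/kg and 294, 242, 257 and 193 CPM at 40 mg/kg. In each SIN group 3 of 4 rats were above every DN rat. At 20 mg/kg replicate 4, at 224.7 CPM, barely passed the highest DN rat at 224.5 CPM, and replicate 1 was below every DN rat. The log2 fold changes of Kl were 0.12 (95% interval -0.15 to 0.38, adjusted p = 0.63) and 0.25 (95% interval -0.029 to 0.53, adjusted p = 0.335). Slc34a1 had 3410.3, 4694, 4692 and 3576 CPM at 20 mg/kg and 5855, 4068, 4005 and 3218 CPM at 40 mg/kg. These values overlapped DN at both doses, with log2 fold changes of -0.015 (95% interval -0.44 to 0.41, adjusted p = 0.976) and 0.059 (95% interval -0.42 to 0.54, adjusted p = 0.911). Slc34a3 had 156, 185, 171 and 159.8 CPM at 20 mg/kg and 254, 195, 176 and 173 CPM at 40 mg/kg, with log2 fold changes of 0.033 (95% interval -0.47 to 0.54, adjusted p = 0.955) and 0.29 (95% interval -0.25 to 0.83, adjusted p = 0.559). For Slc34a3 at 40 mg/kg the value was 0.079 without DN replicate 1, 0.15 without SIN (40 mg/kg) replicate 1 and 0.46 without DN replicate 3. The DN rats had a coefficient of variation of 34.5% for Slc34a3 and 22.7% for Slc34a1.

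Slc20a2 ran from 45.2 to 56.2 CPM at 20 mg/kg and from 49.1 to 55.8 CPM at 40 mg/kg, and its log2 fold changes over DN were -0.094 (95% interval -0.30 to 0.11, adjusted p = 0.615) and -0.0092 (95% interval -0.19 to 0.18, adjusted p = 0.967). Pdzk1 ran from 879.5 to 1064 CPM and from 826 to 1138 CPM, with log2 fold changes of 0.074 (95% interval -0.31 to 0.46, adjusted p = 0.844) and 0.014 (95% interval -0.39 to 0.42, adjusted p = 0.978). Slc9a3r1 ran from 625 to 869 CPM and from 604 to 914 CPM, with log2 fold changes of -0.16 (95% interval -0.43 to 0.11, adjusted p = 0.521) and -0.25 (95% interval -0.54 to 0.045, adjusted p = 0.359). For the scaffolds and Slc20a2 the SIN rats therefore overlapped the DN rats at both doses.

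**Figure D3:**
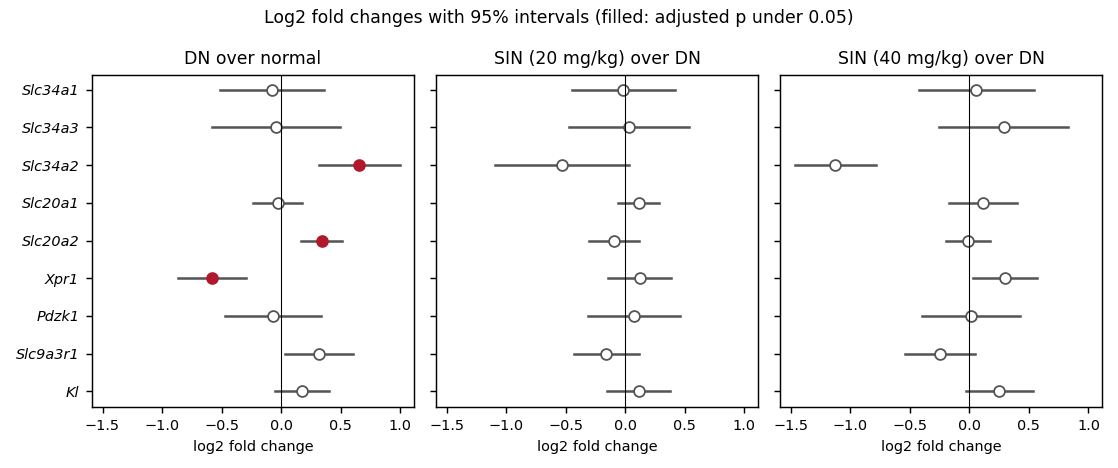
Log2 fold change of each of the 9 genes (points) with its 95% interval (lines) for DN over normal and for each SIN group over DN. Filled points passed an adjusted p under 0.05: Slc34a2, Slc20a2 and Xpr1 in DN over normal, and none in the SIN comparisons, where Slc34a2 at 40 mg/kg lies at -1.12.

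Against the normal group, Xpr1 was lower at 20 mg/kg and Slc20a2 was higher at 40 mg/kg. With SIN (20 mg/kg), Xpr1 was the only member called, against 6.36% of 15877 genes, and its log2 fold change was -0.46 (SE 0.11, 95% interval -0.70 to -0.22, adjusted p = 0.0325). Xpr1 and Slc20a2 did not overlap the normal rats, against 13.7% of all genes, and Slc20a2 had a log2 fold change of 0.25 (95% interval 0.047 to 0.45, adjusted p = 0.147). With SIN (40 mg/kg), Slc20a2 was the only member called, against 5.97% of 15735 genes, at 0.32 (SE 0.077, 95% interval 0.15 to 0.50, adjusted p = 0.0374). Slc20a2 and Slc34a2 did not overlap the normal rats, against 14.3% of all genes. Slc34a2 was there below every normal rat, at -0.48 (95% interval -0.79 to -0.16, adjusted p = 0.0817), whereas in DN it had been above them. Xpr1 was at -0.29 (95% interval -0.53 to -0.054, adjusted p = 0.14) at 40 mg/kg. Kl had 3 rats above every normal rat in each SIN group, with log2 fold changes of 0.29 (95% interval 0.014 to 0.56, adjusted p = 0.219) at 20 mg/kg and 0.42 (95% interval 0.12 to 0.72, adjusted p = 0.1) at 40 mg/kg. Leaving out 1 rat removed the Xpr1 call at 20 mg/kg in 6 of 8 cases, all but those of normal replicate 2 and SIN (20 mg/kg) replicate 1. It removed the Slc20a2 call at 40 mg/kg in 7 of 8, all but that of normal replicate 2, and without SIN (40 mg/kg) replicate 4 Kl was called instead. Over the same omissions the share of all genes called ran from 3.42% to 7.66% at 20 mg/kg and from 2.89% to 6.37% at 40 mg/kg.

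Between the doses none of the 9 genes was called by the quasi-likelihood test, against 0.00639% of 15657 genes (1 gene), and none had groups without overlap, against 3.31%. At an unadjusted p under 0.05 there were 1 member, Slc34a2, and 779 genes in all, and DESeq2 called 17 genes and edgeR's exact test 6, with no member among them. For Slc34a2 the log2 fold change of 40 over 20 mg/kg was -0.61 (95% interval -1.16 to -0.053, adjusted p = 0.961), and it was -0.32 without SIN (20 mg/kg) replicate 1. It was 0.12 (95% interval -0.19 to 0.44, adjusted p = 0.981) for Kl, 0.17 (95% interval -0.051 to 0.38, adjusted p = 0.964) for Xpr1 and 0.073 (95% interval -0.13 to 0.28, adjusted p = 0.988) for Slc20a2.

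Slc34a1, Slc34a3 and Pdzk1 lay close to each other from rat to rat. After the mean over 16 rats was taken off, the root mean square difference in log2 CPM was 0.154 between Slc34a1 and Pdzk1, 0.172 between Slc34a1 and Slc34a3 and 0.197 between Slc34a3 and Pdzk1. The same measure was 0.239 between Slc34a1 and Kl, 0.314 between Slc34a1 and Xpr1 and 0.647 between Slc34a1 and Slc34a2. Some other pairs came about as near as Slc34a3 and Pdzk1. They were at 0.2 for Slc20a1 and Slc20a2, 0.205 for Slc9a3r1 and Kl and 0.209 for Slc20a2 and Kl. The mean log2 CPM of the 14 proximal tubule markers was lowest in DN replicate 1, at 9.25, where Slc34a1, Slc34a3, Pdzk1 and Xpr1 were also lowest. It was highest in normal replicate 1, at 9.996, whereas Slc34a1 and Slc34a3 were highest in SIN (40 mg/kg) replicate 1 and Pdzk1 in DN replicate 4. Summed, these markers ran from 15085 to 19286 CPM in normal, 13778 to 17109 in DN, 12741 to 15096 in SIN (20 mg/kg) and 13607 to 16753 in SIN (40 mg/kg) rats, and none was at 0. The lowest sum was that of SIN (20 mg/kg) replicate 1. Without DN replicate 1 the same 3 members were called between DN and normal, as were 10% of all genes. The part of proximal tubule content in the values of the members was not tested.

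**Figure D4:**
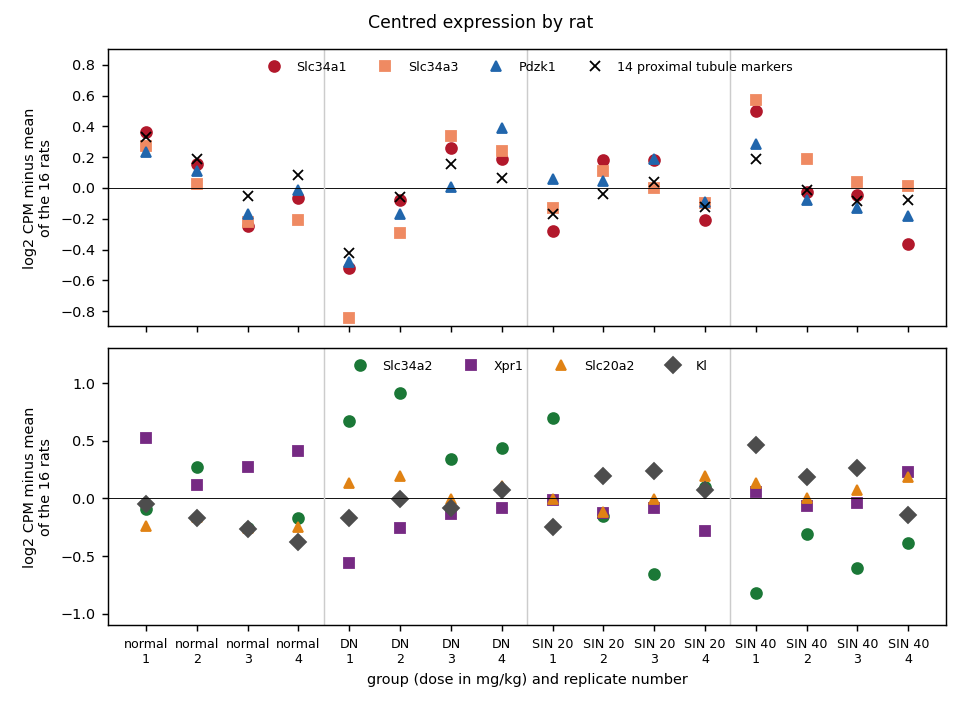
Log2 CPM of single genes in each rat minus the mean of the 16 rats. The upper panel holds Slc34a1, Slc34a3, Pdzk1 and the mean of 14 proximal tubule markers, which are all lowest in DN replicate 1, and the lower panel holds Slc34a2, Xpr1, Slc20a2 and Kl, with Slc34a2 above 0 in every DN rat and below 0 in every SIN (40 mg/kg) rat.

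Among all 16403 genes compared, the patterns nearest to Slc34a1 by this measure were those of Slc37a4 (0.115), the glucose-6-phosphate transporter, Slc3a2 (0.115), an amino acid transporter subunit, and Mpst (0.118). Among the nearest to Slc34a3 were Vdr (0.138), the vitamin D receptor, and Ctsa (0.14). Of the 9 members Slc34a2 lay farthest from its nearest genes, which were Socs3 (0.275), a feedback inhibitor of cytokine signalling, Sh3bp2 (0.302) and Lbp (0.314), which binds bacterial lipopolysaccharide, where its own SD over the rats was 0.516. For the others the nearest were Dusp16 (0.0716) for Slc20a1, Atraid (0.0811) for Slc20a2, Tgoln2 (0.0702) for Xpr1, Mgst3 (0.0934) for Pdzk1, Fbxw5 (0.0602) for Slc9a3r1 and Pou6f1 (0.11) for Kl. These are descriptions of genes that share libraries and depth, and a gene of small spread comes near to many others.

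Genes around the carriers are given with the same background, 19.5% of all genes called between DN and normal and a median log2 fold change over all genes of 0.0016. The counts of called genes in these lists are small, and they are read as descriptions beside that share. Of 5 partners of the scaffolds and carriers, 2 rose: Pdzk1ip1, which binds Pdzk1, by a log2 fold change of 0.53 (SE 0.11, adjusted p = 0.0152) and Gabarap by 0.36 (SE 0.11, adjusted p = 0.0424), with a list median of 0.36. Of 8 other phosphate and pyrophosphate transport genes, 2 rose and 1 fell, with a median of 0.18. These were members of the SLC17 family of organic anion and phosphate carriers: Slc17a4 at 1.18 (SE 0.23, adjusted p = 0.0121), Slc17a3 at 0.53 (SE 0.14, adjusted p = 0.0274) and Slc17a2 at -0.90 (SE 0.17, adjusted p = 0.012).

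Of 14 tested genes of PTH and FGF23 signalling, 1 rose and 2 fell, near the 19.5% of all genes, with a median of -0.21. Prkaca, a catalytic subunit of protein kinase A, was at 0.35 (SE 0.085, adjusted p = 0.025). Egr1, an immediate early gene that FGF23 can induce, fell from a mean of 37.5 to 6.30 CPM, a log2 fold change of -2.57 (SE 0.62, adjusted p = 0.0238), and Galnt3, whose enzyme protects FGF23 from cleavage, was at -1.40 (SE 0.35, adjusted p = 0.0257). Fgf23 itself, a hormone of bone, had a mean of 0 CPM in both groups. The receptor for PTH, Pth1r, chosen for its role after its values were seen, was at -0.043 (SE 0.17, adjusted p = 0.878). Of the 3 proteases that can release Klotho from the membrane, Adam10 fell by 0.76 on the log2 scale (SE 0.19, adjusted p = 0.0255) and the list median was -0.47.

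Of 7 genes of the vitamin D hormone, 1 fell, a share below the 19.5% of all genes, with a median of 0.083: Gc, the vitamin D binding protein, at -1.68 (SE 0.41, adjusted p = 0.0247). Cyp24a1, the enzyme that degrades active vitamin D, and Cyp27b1, which makes it, were picked out after their values were seen. Cyp24a1 had means of 98.5 CPM in normal and 375 CPM in DN (log2 fold change 1.94, SE 0.67, adjusted p = 0.0667), and it was called higher than normal at 20 mg/kg (1.57, SE 0.38, adjusted p = 0.0402) and at 40 mg/kg (1.22, SE 0.26, adjusted p = 0.0221). At each dose 1 of the 7 genes was called higher than normal and 1 lower, against 6.36% and 5.97% of all genes called. Cyp27b1 had 5.50 CPM in normal and 1.43 CPM in DN (log2 fold change -1.93, SE 0.68, adjusted p = 0.0734). No gene of these 5 lists was called between either SIN group and DN, where 0% of all genes tested were called. The counts at an unadjusted p under 0.05, in the order partners, other transport, PTH and FGF23 signalling, Klotho proteases and vitamin D, were 1, 1, 5, 1 and 0 at 20 mg/kg and 0, 1, 3, 2 and 0 at 40 mg/kg. The numbers tested were 5, 8, 14, 3 and 7, and over all genes 2427 of 15724 and 2657 of 15530 were at such a p.

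Markers of other kidney cells were measured in the same fits between DN and normal, where 19.5% of all genes were called. Of 14 proximal tubule markers, Ggt1 rose (0.53) and Slc7a13, an amino acid transporter of the late proximal tubule, fell (-1.51). In the thick ascending limb 1 of 5 fell (Umod, -0.77), in the collecting duct 2 of 8 fell (Atp6v0d2, -0.95, and Slc26a4, -0.89), and among leukocyte markers 1 of 5 fell (Ptprc, -0.81). The median log2 fold changes of these lists, in the order named, were -0.16, -0.35, 0.17 and -0.24, so the 2 called collecting duct genes went against their list. Collecting duct markers summed to 568 to 1234 CPM in normal and 898 to 1971 CPM in DN rats. None was called among 6 of the distal convoluted tubule, where Kl is also expressed, 5 of podocytes, 4 of endothelium and 5 of tissue around the kidney. The medians of those lists, in the same order, were -0.24, -0.44, -0.093 and 1.25. Distal convoluted tubule markers summed to 740.0 to 963 CPM in normal and 601 to 881 CPM in DN rats, with Pvalb at 0 in both. The markers of surrounding tissue reached 120.1 CPM in DN replicate 3 against 26.2 to 29.7 CPM in DN replicates 1, 2 and 4. Without DN replicate 3 the same 3 members were called, as were 16.2% of all genes. Of 5 tubular injury markers, Havcr1 (2.23) and Clu (1.17) rose and Vcam1 (-0.98) fell. The part of these cell types in the values of Slc34a2, Slc20a2, Xpr1 and Kl was not tested.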

How the data were processed

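Kidney RNA of 16 rats (4 in each of 4 groups) was sequenced as paired-end, poly(A)-selected libraries. The authors trimmed and aligned the reads to the rat genome and deposited 1 table of estimated counts per gene and rat, before normalization, with a gene length in bases. The submitters' processing notes name TopHat, Bowtie, RSEM and edgeR without versions. Whole numbers made up 74.3% of the nonzero values, and fractions were rounded before any test. The columns of 4 libraries that no sample record names, and the group means, were not used.

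Groups were taken from the sample titles. Each of 6 comparisons was fitted alone with edgeR 4.0.16 (R 4.3.3): TMM normalization, filterByExpr, glmQLFit and glmQLFTest, two-sided, with Benjamini-Hochberg adjustment over all genes tested and a threshold of 0.05. For CPM, TMM factors came from a scaling of the 16 libraries together, and 2 was the prior count of log2 CPM. Intervals of 95% are the log2 fold change ± t times its SE. Log2 ratios were compared by exact permutation. The steps were tested on simulated counts. The members and the 14 gene lists (107 distinct genes, 102 of which had 1 row in the table) were chosen with earlier results of these data known. Reported are all 9 members, the genes of each list called between DN and normal, at most 4 per direction, and the genes nearest to each member by root mean square difference of centred log2 CPM, of which 1 to 3 are named and 1 is not reported here. Same-numbered rats were not treated as pairs: correlations of their deviations from the group means ran from -0.239 to 0.244, with 2 of 24 over 0.1. Alternatives were DESeq2 1.42.0, edgeR's exact test, a joint fit of the 16 rats, a replicate block, RLE scaling, testing without a filter or with a minimum of 10 counts per rat, omission of single rats and, for ratios, 0.25 as the prior count. Promoter sequences are those of RefSeq for build GRCr8, which is not the build of the deposited table (Rnor_6.0), so positions are given only for the promoter windows, in GRCr8.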

Additional observations from a re-analysis of the deposited data

Results flagged for a closer look

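The log2 ratio of Kl to Slc34a1 in the SIN (20 mg/kg) group had 1 rat away from the rest: the values were -4.24, -4.26, -4.22 and -3.99, and the gap of replicate 4 to its nearest neighbour was 0.84 of the whole range, over Dixon's 95% limit for 4 samples. It was the only one of 48 groups of values checked to pass that limit, where chance passes about 1 in 20.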

How the results depend on the processing

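Of 585 log2 fold changes recomputed under alternatives, 522 kept their direction and side of the threshold, 25 lost and 9 gained a call, and 29 changed direction, none of which had been called. With the replicate number as a block, members called fell from 3 to 1 between DN and normal (Slc34a2 remained) and from 1 to 0 between SIN (20 mg/kg) and normal, while 2 (Slc34a2 and Kl) were called in place of 1 (Slc20a2) between SIN (40 mg/kg) and normal, and all genes called went from 3074 to 1325 between DN and normal. Of 24 same-numbered pairs 3 matched best with their own, a check that with so few rats per group cannot exclude a shared block. The block changed no other call of a member. Members called between SIN (40 mg/kg) and DN were 1 by DESeq2 and 1 by edgeR's exact test against 0, and between SIN (40 mg/kg) and normal 3 by DESeq2, 2 by the exact test and 0 without a filter, against 1. DESeq2 called 1726 and 1761 genes in all against 1009 and 940 between the lower and the higher SIN dose and normal. The log2 fold change of Slc34a1 between SIN (20 mg/kg) and DN became 0.0026 with the block, and that of Pdzk1 between SIN (40 mg/kg) and DN became -0.0013 with DESeq2, -0.0013 with RLE and -0.0021 with all 16 rats in one fit. The cause was not tested.

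With each rat left out in turn, members called ran from 0 to 4 between DN and normal, and from 0 to 1 between each SIN group and normal. The share of all genes called ran from 4.81% to 23.6% between DN and normal. Against normal it ran from 3.42% to 7.66% for SIN (20 mg/kg) and from 2.89% to 6.37% for SIN (40 mg/kg). The log2 ratio between DN and normal ran from -0.076 to 0.058 for Slc34a3 to Slc34a1 and from -0.075 to 0.15 for Slc20a1 to Slc34a1, and for Kl to Slc34a1 it kept its direction. Log2 fold changes between DN and normal ran from -0.18 to 0.066 for Slc34a1, -0.21 to 0.15 for Slc34a3, -0.077 to 0.031 for Slc20a1 and -0.25 to 0.057 for Pdzk1. Between SIN (20 mg/kg) and DN they ran from -0.16 to 0.089 for Slc34a1, -0.16 to 0.20 for Slc34a3 and -0.053 to 0.25 for Pdzk1. Between SIN (40 mg/kg) and DN they ran from -0.13 to 0.17 for Slc34a1, -0.022 to 0.18 for Slc20a1, -0.045 to 0.019 for Slc20a2 and -0.13 to 0.18 for Pdzk1, and between SIN (20 mg/kg) and normal from -0.16 to 0.31 for Slc34a2. With 4 rats in a group, exact tests of ratios cannot go below 0.0286 (0.125 when paired by number).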
